A study of Mus musculus with 6 samples.

Results

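The genes described here are 9 that control or report hepatic fat synthesis from sugar. They comprise 6 transcription regulators (Srebf1, Mlxipl, Mlx, Nr1h2, Nr1h3 and Usf1) and 3 genes that respond to glucose through the factor encoded by Mlxipl (Rgs16, Txnip and Arrdc4). They were taken by exact gene symbol from a liver count table of 35976 rows, and all 9 were found and passed the filter on low counts. Poly(A) RNA was sequenced from livers of male mice of the genotypes IRE1fl and IRE1PKO, in 3 libraries of each. All mice were fed HFD (presumably a high-fat diet), and livers were taken 4 hours into feeding that ended a fast of 16 hours. IRE1fl denotes the floxed control genotype as read from its name. The labels spell out neither PKO nor the cells in which IRE1 was removed, although the series title concerns signalling from pituitary to liver, and they give no age or strain. IRE1, encoded by Ern1, is a stress sensor of the endoplasmic reticulum.

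As background, the liver turns surplus carbohydrate into fat under joint control of insulin and glucose. Insulin raises SREBP1c, a product of Srebf1 that must be cleaved from a membrane precursor before it enters the nucleus, and the liver X receptors LXRα (Nr1h3) and LXRβ (Nr1h2) sense oxysterols and activate Srebf1 transcription. Glucose metabolites activate ChREBP (Mlxipl), which binds DNA as a partner of MLX (Mlx), while USF1 (Usf1) binds E-boxes in lipogenic promoters. Txnip and Arrdc4 encode alpha-arrestins that restrain glucose uptake, and Rgs16 encodes a GTPase-activating protein that shortens signalling through G proteins.

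Of the 9 genes, 2 rose and none fell in IRE1PKO livers, and the test left 7 without a call. Rgs16 rose 1.94-fold and Txnip 1.34-fold. None of the 6 regulators passed the test, and 5 of them had a fold change below 1. Arrdc4, the other glucose target, had a fold change of 0.704 that also missed the threshold. Over all 14954 tested genes 9.54% were called, 5.68% higher and 3.86% lower (edgeR's quasi-likelihood test, Benjamini-Hochberg adjustment over all tested genes, threshold 0.05). Of the 9, 7 had an unadjusted p under 0.05 in either direction, against 25% of all tested genes. Of these 7, 5 were lower, and the share of all tested genes in each direction at this p was not counted. DESeq2 called 2 of the 9 lower, Srebf1 and Nr1h3, beside 890 genes lower over the whole table. By limma-voom 0 of the 9 were lower, beside 578 over the whole table. Both methods called Rgs16 and Txnip higher.

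Sequence in front of the start sites is shown for the glucose targets and for the main regulators, so that it can be searched for the kinds of element that ChREBP and LXR are known to bind. Each line gives the 250 bases before a RefSeq start (GRCm38.p6, the same build as mm10), read 5′ to 3′ on the gene's own strand. Capitals mark matches on either strand to the E-box CACGTG or to a form of the paired carbohydrate response element (CACGNG, any 5 bases, CACGNG). In Srebf1 they mark a stretch of 14 bases that recurs with 1 mismatch.
Txnip (chr3:96557707-96557956, plus strand): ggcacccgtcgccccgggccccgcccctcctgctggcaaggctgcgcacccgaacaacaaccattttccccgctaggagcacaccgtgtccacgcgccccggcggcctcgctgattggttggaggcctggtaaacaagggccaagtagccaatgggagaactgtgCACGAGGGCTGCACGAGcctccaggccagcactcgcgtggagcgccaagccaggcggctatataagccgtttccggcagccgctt
Arrdc4 (chr7:68749239-68749488, minus strand): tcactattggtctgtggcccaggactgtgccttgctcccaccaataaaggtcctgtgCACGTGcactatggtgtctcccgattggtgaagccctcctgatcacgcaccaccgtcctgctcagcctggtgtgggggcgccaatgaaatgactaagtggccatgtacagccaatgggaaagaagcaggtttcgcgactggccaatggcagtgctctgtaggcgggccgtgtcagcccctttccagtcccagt
Rgs16 (chr1:153740103-153740352, plus strand): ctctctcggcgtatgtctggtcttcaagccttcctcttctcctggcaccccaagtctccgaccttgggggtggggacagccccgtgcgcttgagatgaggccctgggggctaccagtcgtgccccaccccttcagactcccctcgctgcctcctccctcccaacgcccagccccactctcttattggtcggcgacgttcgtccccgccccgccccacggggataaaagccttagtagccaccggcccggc
Mlxipl, upstream start (chr5:135089640-135089889, plus strand): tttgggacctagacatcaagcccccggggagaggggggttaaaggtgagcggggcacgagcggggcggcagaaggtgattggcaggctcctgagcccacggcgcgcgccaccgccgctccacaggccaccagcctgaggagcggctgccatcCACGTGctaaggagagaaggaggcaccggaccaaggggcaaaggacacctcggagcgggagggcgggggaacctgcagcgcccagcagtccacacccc
Srebf1, most downstream of 3 starts (chr11:60210472-60210721, minus strand): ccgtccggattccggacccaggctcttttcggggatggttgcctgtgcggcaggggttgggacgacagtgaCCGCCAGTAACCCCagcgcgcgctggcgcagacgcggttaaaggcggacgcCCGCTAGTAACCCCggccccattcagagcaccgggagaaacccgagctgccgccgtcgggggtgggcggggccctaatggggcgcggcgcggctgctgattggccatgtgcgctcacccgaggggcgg

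The Txnip window held the paired element 85 to 69 bases before the start. Only 15 of 32851 RefSeq windows of that length (0.0457%) held a match to this pattern, and among the 14 windows of the 9 genes it was found in that of Txnip alone. Arrdc4 held a single E-box 193 to 188 bases before its start, the upstream Mlxipl window held one 98 to 93 bases before, and the Mlx window held one 40 to 35 bases before. E-boxes were present in 6.02% of all windows, and a single E-box also matches only part of the paired element. In the Rgs16 window neither pattern was found. The recurring Srebf1 stretch, CCGCNAGTAACCCC, lay 179 to 166 and 128 to 115 bases before the start. It was sought as the longest near-repeat of this window after the sequence had been seen, and no other window among the 32851 held a match. The sterol element TCACCCCAC and the LXR repeat (AGGTCA, any 4 bases, AGGTCA) were sought as exact copies. They occurred in 0.496% and 0.0152% of windows and in none of the 14. Imperfect copies were not sought, so these windows, the recurring Srebf1 stretch included, may still hold elements of either kind. As background, the downstream Srebf1 start gives SREBP1c and the upstream Mlxipl start gives the short form ChREBPβ. The 2 Mlxipl starts lie 17001 bases apart, and counts per gene symbol do not separate the forms of either gene.

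Library totals ranged from 35776219 to 39277435 counts. Values are CPM, counts scaled to the library size, and fold changes are IRE1PKO over IRE1fl. Liver Ern1 had 61.2, 49.3 and 60.8 CPM in IRE1fl and 45.7, 36.6 and 44.2 CPM in IRE1PKO, a log2 fold change of -0.44 (SE 0.11, edgeR adjusted p = 0.0357). Its groups did not overlap. If the deletion lies in another organ, this liver value does not check the labels. The call was kept when IRE1fl 02 was left out and lost when any other single library was (adjusted p up to 0.137), and also lost under scaling by library totals alone and under limma-voom. Hepatocyte markers summed to 96911 to 112379 CPM in IRE1fl and 87069 to 109077 CPM in IRE1PKO, with 0 of 10 higher and 3 lower (Tat, Serpina1a and Ahsg).

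Srebf1 (chromosome 11, 60199084 to 60224186) measured 934, 495 and 561 CPM in IRE1fl and 373, 498 and 415 CPM in IRE1PKO. IRE1fl 01 stood well above the other 5 libraries, and the groups overlapped through IRE1fl 02 and IRE1PKO 02. The means were 663 ± 237 and 429 ± 63.2 CPM (SD, n = 3 each). The log2 fold change was -0.63 (SE 0.25, 95% interval -1.22 to -0.034) and did not pass (edgeR adjusted p = 0.178). Without IRE1fl 01 the log2 fold change was -0.30 (adjusted p = 0.199), and over the fits that each left out a library the adjusted p ran from 0.0791 to 0.376. Srebf1 varied more between IRE1fl libraries than any of the other 8 genes, with a coefficient of variation of 35.7%, against 2.48% to 12.9% for those.

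Mlxipl (chromosome 5, 135089890 to 135139768) had 384, 383 and 327 CPM in IRE1fl and 260.0, 281 and 334 CPM in IRE1PKO. IRE1PKO 03 lay inside the range of the controls and the other IRE1PKO libraries lay below it. The log2 fold change was -0.32 (SE 0.12, 95% interval -0.58 to -0.069) and did not pass (edgeR adjusted p = 0.108). Without IRE1PKO 03 it was -0.43 and passed (adjusted p = 0.0408).

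Mlx (chromosome 11, 101086707 to 101092207) had 33.7, 39.1 and 33.9 CPM in IRE1fl and 31.3 CPM in each IRE1PKO library. Its groups did not overlap in these TMM-scaled values. By library total alone they did, as IRE1PKO 03 (1280 of 39008647 counts) lay above IRE1fl 03 (1258 of 39277435). The log2 fold change of -0.18 (SE 0.091, 95% interval -0.38 to 0.017) missed the threshold (edgeR adjusted p = 0.240). Mlxip, a paralogue of Mlxipl that also pairs with MLX, was at 11.8 ± 0.404 CPM in IRE1fl and 12.9 ± 2.50 CPM in IRE1PKO, with no call (adjusted p = 0.646).

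Nr1h3 (chromosome 2, 91184061 to 91202829), for LXRα, had 126, 127 and 118 CPM in IRE1fl and 101, 106 and 103 CPM in IRE1PKO. Each IRE1PKO library lay below each control library, and the spread within a group was small. The log2 fold change was -0.25 (SE 0.081, 95% interval -0.43 to -0.077, edgeR adjusted p = 0.0730). Nr1h2 (chromosome 7, 44549616 to 44553968), for LXRβ, had 43.4, 45.6 and 44.3 CPM in IRE1fl and 47.3, 45.0 and 44.9 CPM in IRE1PKO. The log2 fold change of Nr1h2 was 0.041 (95% interval -0.13 to 0.22, edgeR adjusted p = 0.796). Usf1 (chromosome 1, 171411307 to 171418954) had 29.4, 27.3 and 28.6 CPM in IRE1fl and 25.7, 22.0 and 23.6 CPM in IRE1PKO. Its groups did not overlap either, and its log2 fold change of -0.26 (SE 0.095) did not pass (edgeR adjusted p = 0.114).

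Rgs16 (chromosome 1, 153740353 to 153745468) had 183, 237 and 216 CPM in IRE1fl and 377, 497 and 362 CPM in IRE1PKO. The lowest IRE1PKO library exceeded the highest control library by a wide margin. The mean of Rgs16 went from 212 ± 27.4 to 412 ± 73.9 CPM, or 0.96 on the log2 scale (SE 0.14, 95% interval 0.65 to 1.27, edgeR adjusted p = 0.00240). It stayed past the threshold in each of 15 alternative analyses, with values from 0.80 to 1.04.

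Txnip (chromosome 3, 96557957 to 96561857) had 126, 108 and 112 CPM in IRE1fl and 139, 166 and 159 CPM in IRE1PKO. The groups were close but did not overlap, with IRE1fl 01 and IRE1PKO 01 nearest to each other. The mean of Txnip went from 115 ± 9.53 to 155 ± 14.3 CPM, or 0.42 on the log2 scale (SE 0.10, 95% interval 0.20 to 0.64, edgeR adjusted p = 0.0236). The call was lost without IRE1fl 02, IRE1fl 03, IRE1PKO 02 or IRE1PKO 03 (adjusted p up to 0.0997), while the log2 fold change stayed between 0.37 and 0.50. Gm15441, a transcript annotated on the opposite strand, shares exon sequence with Txnip, and whether counting used strand is not given in the sources used here. It had 10, 11 and 10 counts in IRE1fl and 20, 23 and 20 counts in IRE1PKO, against at least 3798 for Txnip in every library. Exon overlap with other annotated genes was 606 bases for Txnip, 385 for Mlx, 236 for Rgs16 (with Gm28513 on the opposite strand), 235 for Mlxipl, 200 for Usf1, 175 for Srebf1 and 34 for Nr1h3. Nr1h2 and Arrdc4 had none.

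Arrdc4 (chromosome 7, 68736994 to 68749238) had 23.0, 20.7 and 19.0 CPM in IRE1fl and 15.0, 18.6 and 10.6 CPM in IRE1PKO. All IRE1PKO libraries lay below the controls in these TMM-scaled values, IRE1PKO 02 only just. By library total alone the groups overlapped, as IRE1PKO 02 (687 of 36016121 counts) lay above IRE1fl 03 (704 of 39277435). The log2 fold change was -0.51 (SE 0.18, 95% interval -0.92 to -0.091) and did not pass (edgeR adjusted p = 0.123). Its size rested on single libraries: without IRE1PKO 02 it was -0.71 and passed (adjusted p = 0.0340), and without IRE1PKO 03 it was -0.31 and did not (adjusted p = 0.182).

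**Figure D1:**
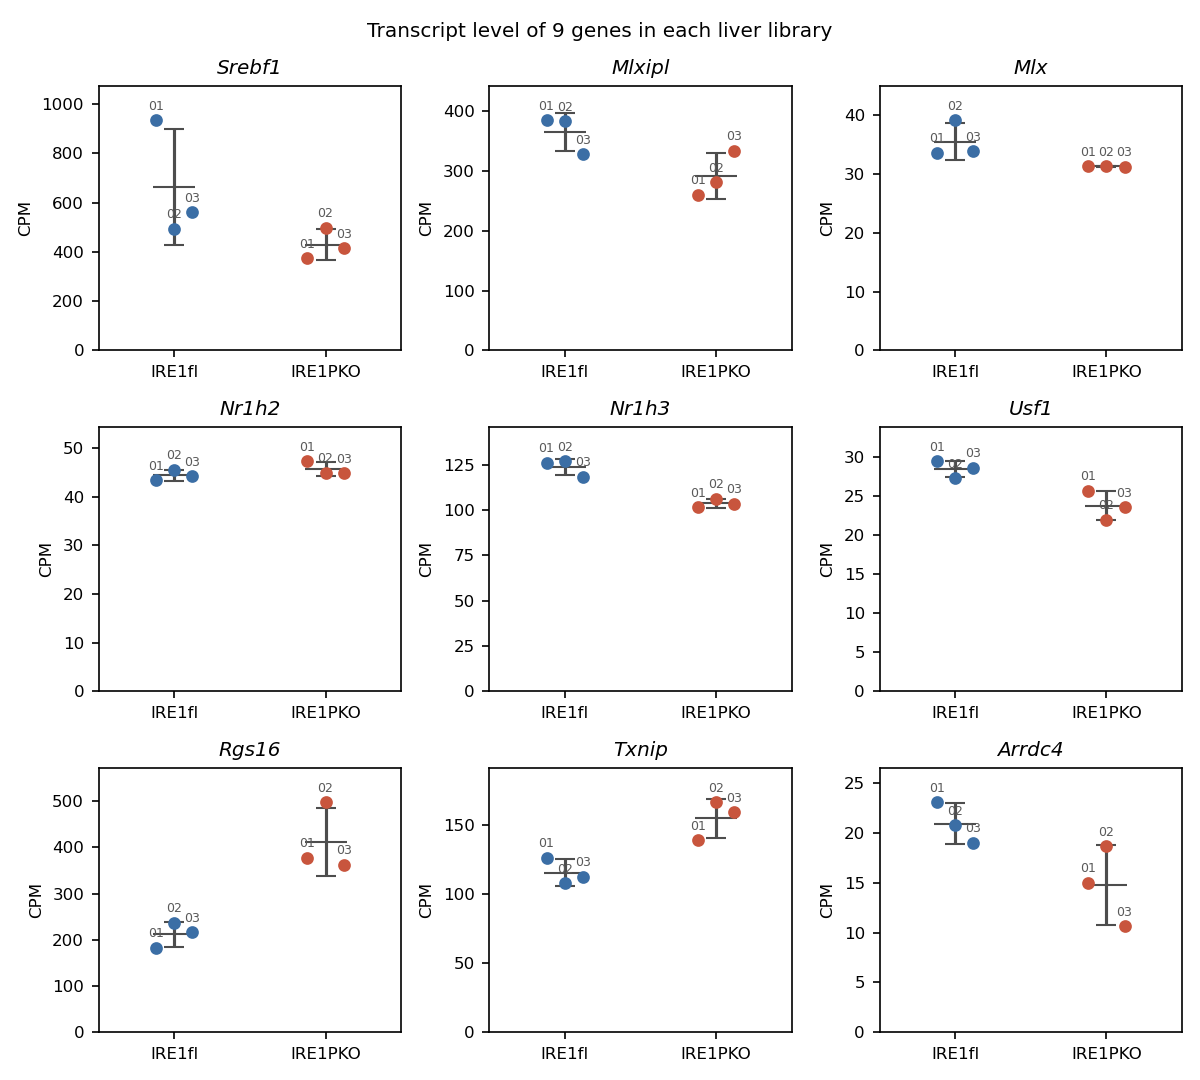
CPM of each of the 9 genes (vertical axes, each from 0) in the 3 IRE1fl and 3 IRE1PKO libraries, with library numbers beside the points and the mean and SD as bars. Rgs16 and Txnip lie higher in IRE1PKO without overlap, and the IRE1fl 01 point of Srebf1 at 934 CPM stands apart from the other 5.

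Across the 9 genes the groups did not overlap for 6, against 31% of all tested genes. Of these, 2 were higher in IRE1PKO (Rgs16 and Txnip, against 16% of all tested genes) and 4 lower (Mlx, Nr1h3, Usf1 and Arrdc4, against 15% of all tested genes). These counts and shares are for TMM-scaled CPM, and the groups of Mlx and Arrdc4 overlapped by library total alone. The median log2 fold change was -0.25 over the 9 genes and -0.26 over the 6 regulators, beside -0.0014 over all tested genes.

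**Figure D2:**
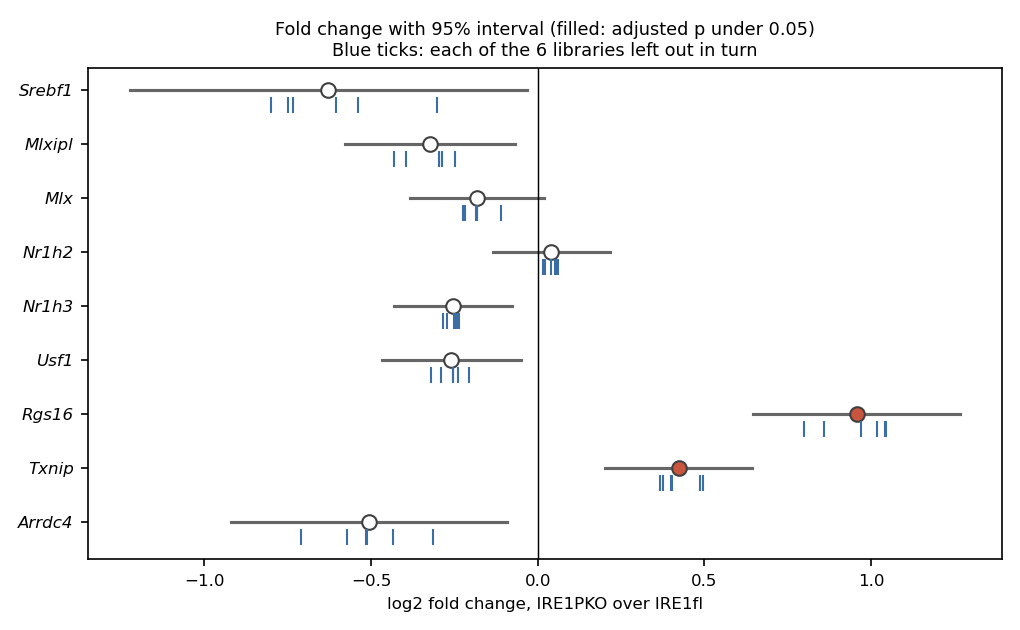
Log2 fold change of each gene (horizontal axis, IRE1PKO over IRE1fl) as a circle with its 95% interval, filled where the adjusted p was under 0.05, and with blue ticks for the fit without each library. Only Rgs16 (0.96) and Txnip (0.42) are filled, and the ticks of Srebf1 spread most widely, from -0.80 to -0.30.

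Scaled to exon length, so that genes can be compared with each other, the levels covered a wide range in IRE1fl livers. Srebf1 had 118 ± 42.0 CPM per kilobase of exon, Rgs16 90.8 ± 11.7, Mlxipl 65.9 ± 5.85 and Nr1h3 49.2 ± 1.82 (SD, n = 3). Txnip followed at 37.0 ± 3.05 CPM per kilobase, then Mlx at 17.8 ± 1.55, Nr1h2 at 13.2 ± 0.329, Usf1 at 10.1 ± 0.382 and Arrdc4 at 5.18 ± 0.502. In this order Srebf1 and Rgs16 overlapped between libraries, and every other neighbouring pair was separated. In IRE1PKO livers Rgs16 came first with 176 ± 31.6 CPM per kilobase and Srebf1 next with 76.1 ± 11.2. There Mlxipl (52.6 ± 6.87) and Txnip (49.5 ± 4.57) overlapped, and Txnip lay above Nr1h3 (41.3 ± 0.964). The exon lengths come from GENCODE M21, and the annotation behind the deposited counts may differ.

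**Figure D3:**
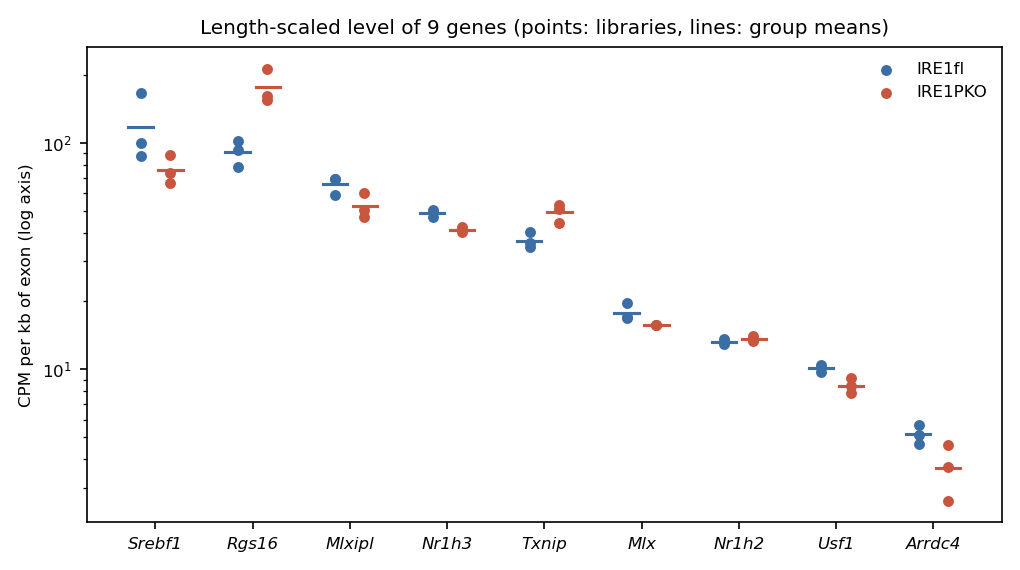
CPM per kilobase of exon (log axis) of the 9 genes, ordered by the IRE1fl mean, with a point for each library and lines at the group means. Srebf1 leads in IRE1fl (118) and Rgs16 in IRE1PKO (176), and Arrdc4 is lowest in both genotypes.

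Ratios within a library compare genes without regard to library scaling. The 5 pairs were chosen after the values were seen. The Txnip to Arrdc4 ratio of CPM was 5.48, 5.20 and 5.92 in IRE1fl and 9.26, 8.91 and 15.0 in IRE1PKO. The ratio of these alpha-arrestin genes was higher in every IRE1PKO library than in any control library. This follows from Txnip being higher and Arrdc4 lower, each without overlap in TMM-scaled CPM. Nr1h3 to Nr1h2 gave 2.90, 2.78 and 2.68 in IRE1fl and 2.15, 2.36 and 2.31 in IRE1PKO. Rgs16 to Mlxipl gave 0.477, 0.620 and 0.661 in IRE1fl and 1.45, 1.77 and 1.09 in IRE1PKO. For the sterol-regulating paralogue Srebf2 over Srebf1 the group means were 0.104 ± 0.0464 and 0.200 ± 0.0580. Fasn, the fatty acid synthase, over Srebf1 went from 1.03 ± 0.368 to 3.71 ± 1.24. None of the 5 ratios overlapped between groups. Each gave p = 0.1 in a two-sided exact permutation test on the log2 ratio (0.1 after Benjamini-Hochberg adjustment over the 5). This is the smallest p that 3 libraries against 3 can give. Because the pairs were picked with the values known, these p-values add no support to the separation.

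**Figure D4:**
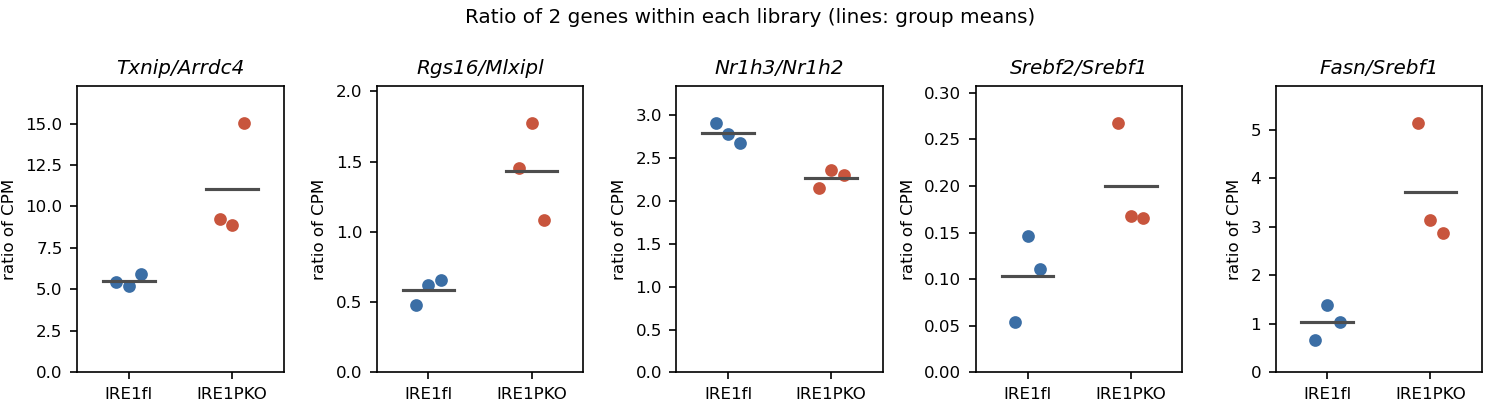
Ratio of CPM of 2 genes within each library (vertical axes, each from 0) for 5 pairs, as points by genotype with lines at the group means. In every panel the IRE1fl and IRE1PKO points are separate, as for Txnip over Arrdc4 with 5.53 ± 0.368 and 11.1 ± 3.42.

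Genes known to lie downstream of these regulators were described from lists of known targets. Each target was placed in a single target list, although regulators can share targets, so the lists do not separate the regulators' activities. Of 15 lipogenic targets of SREBP1c, 12 rose, none fell and the median log2 fold change was 1.20. Fasn rose by 1.30 (SE 0.16), Acaca, which makes malonyl-CoA, by 0.95 (SE 0.12), and the desaturase gene Scd1 by 1.31 (SE 0.26). Elovl5 and Elovl6 (elongases), Fads2 (a desaturase), Gpam (a glycerol-phosphate acyltransferase), Acly and Acacb (acetyl-CoA and malonyl-CoA supply), Me1 (malic enzyme) and Pnpla3 (a droplet hydrolase) also rose. Fads1, Acss2 and Thrsp had log2 fold changes of 0.72, 1.25 and 0.49 and did not pass. The count depended on single libraries: 6 rose without IRE1fl 03, 5 without IRE1PKO 01 and 8 with no filter on low counts. These calls stood beside a Srebf1 log2 fold change of -0.63 that did not pass, and cleaved SREBP1 protein is not measured by these counts.

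Among 12 ChREBP targets of glucose and fructose metabolism, 2 rose and 2 fell, with a median of 0.18. Tkt, a transketolase of the pentose phosphate pathway, rose by 0.76 (SE 0.11), and the hormone gene Fgf21 rose from 2.98 ± 0.542 to 15.4 ± 6.58 CPM. G6pc, the catalytic subunit of glucose-6-phosphatase, fell by 0.90 (SE 0.17), and Slc37a4, which carries glucose 6-phosphate to that enzyme, fell by 0.68 (SE 0.11). G6pc missed the threshold when IRE1PKO 02 was omitted (edgeR adjusted p = 0.0528). Pklr, the liver pyruvate kinase and a classical ChREBP target, had a log2 fold change of 0.38 (edgeR adjusted p = 0.151). Khk (ketohexokinase) had a log2 fold change of 0.22, also without a call.

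Of 10 LXR targets in sterol handling, only Smpdl3a, a phosphodiesterase, was called. Smpdl3a rose by 0.51 (SE 0.10) and no longer passed when IRE1PKO 01 was omitted (edgeR adjusted p = 0.0523). The median of the list was 0.080. Pltp, a phospholipid transfer protein, was at 22.1 ± 0.915 CPM in IRE1fl and 115 ± 58.2 CPM in IRE1PKO without passing (edgeR adjusted p = 0.0546), and with library totals as the only scaling or with DESeq2 3 genes of the list rose. The cholesterol exporter Abca1 and the apolipoprotein Apoe had log2 fold changes of -0.25 and -0.034, and that of Apoe changed sign with library totals alone. Cyp7a1, the rate-limiting enzyme of bile acid synthesis, was at 201 ± 109 CPM in IRE1fl and 64.2 ± 19.0 CPM in IRE1PKO, with overlapping groups and a log2 fold change of -1.65 (SE 0.58, edgeR adjusted p = 0.183). The log2 fold changes of Abcg5 and Abcg8 were -0.74 and -0.70, and neither passed (edgeR adjusted p = 0.206 and 0.122). No gene of the list fell in the main edgeR fit, with 2 at an unadjusted p under 0.05 in that direction. By DESeq2 2 fell, and edgeR called 1 lower without robust fitting, without IRE1fl 01 and without IRE1fl 02.

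Among 13 factors that process SREBP or partner these regulators, none was called by the main edgeR fit. At an unadjusted p under 0.05, 4 were higher and 2 lower, and DESeq2 called 2 higher. Insig1, which holds the SREBP precursor in the endoplasmic reticulum and is itself an SREBP target, was at 224 ± 47.5 CPM in IRE1fl and 475 ± 156 CPM in IRE1PKO. Its groups did not overlap, and its log2 fold change of 1.09 (SE 0.29) missed the threshold (edgeR adjusted p = 0.0742). It passed with library totals alone, with DESeq2, with limma-voom, without robust fitting and without IRE1PKO 03. Scap, the escort of SREBP, had a log2 fold change of -0.012 (adjusted p = 0.971), and Rxra, the partner of the LXRs, one of -0.20 (adjusted p = 0.208).

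**Figure D5:**
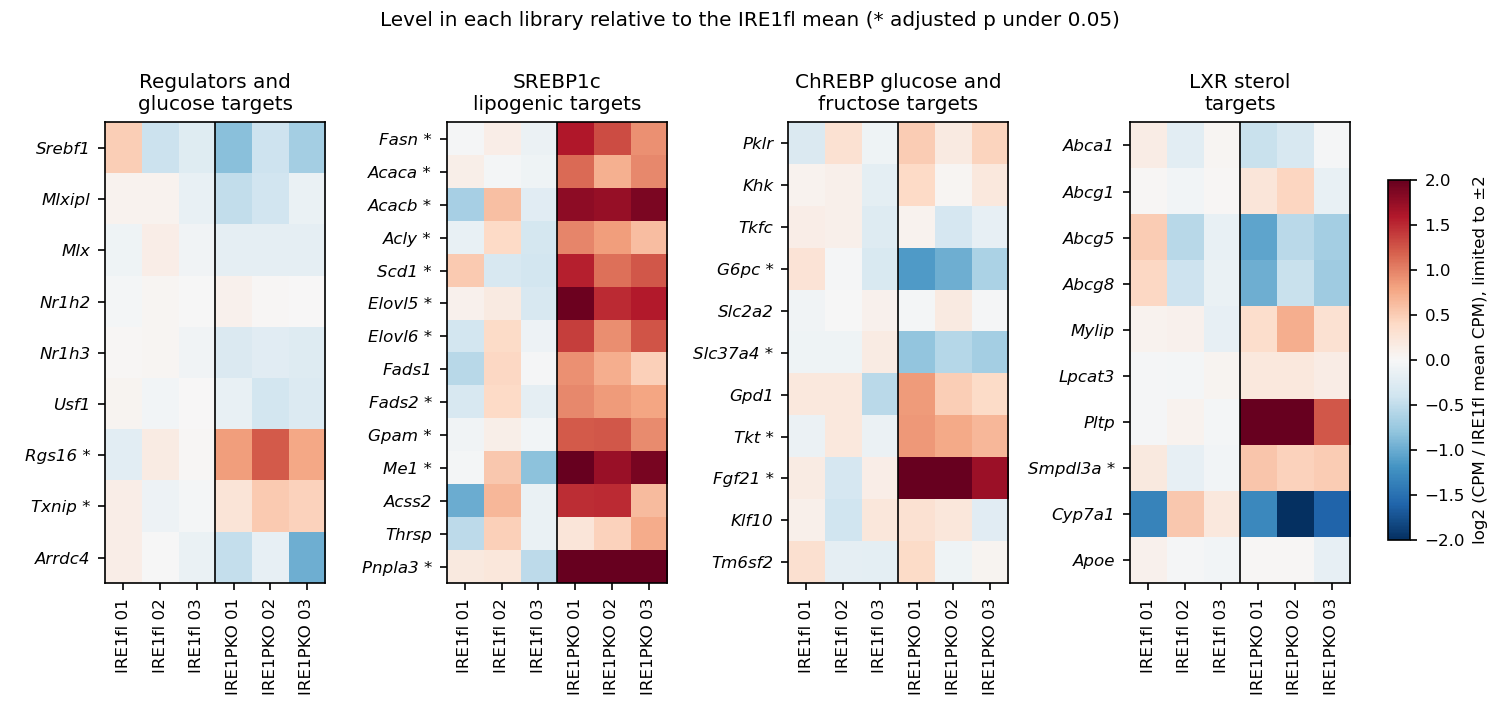
Level of each gene in each library as log2 of CPM over the IRE1fl mean (colour, limited to 2 in either direction), for the 9 genes and for the reported members of the target lists of SREBP1c, ChREBP and LXR, with asterisks at an adjusted p under 0.05. Most SREBP1c targets are red in all IRE1PKO libraries, as Fasn with a log2 fold change of 1.30, while the panels of ChREBP and LXR targets are mixed. Each target stands in a single panel, so the panels do not tell the regulators apart.

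The genes with the most similar course over the 6 libraries were sought among 7841 tested genes of at least 10 CPM, by the root mean square difference of log2 CPM centred on each gene's mean. For Srebf1 the nearest were Abcg8 (0.081) and Abcg5 (0.11), which encode the subunits of a sterol exporter, and Fgfr2 (0.15), a growth factor receptor. Abcg8 had 279, 158 and 192 CPM in IRE1fl and 106, 154 and 128 CPM in IRE1PKO, so it too was highest in IRE1fl 01. Abcg5 and Abcg8 both belong to the list of LXR targets. The nearest to Mlxipl were Thrb (a thyroid hormone receptor, 0.061), Glyctk (glycerate kinase, 0.063) and Zc3h4 (0.067). Among the nearest to Rgs16 were Adcy6 (an adenylyl cyclase, 0.10) and Lpin2 (a phosphatidate phosphatase, 0.12), both of which rose. For Txnip these were Reln (0.053), Prelp (0.059) and Tgoln1 (0.059), which also rose, and for Arrdc4 Tob2 (0.089), Sorbs3 (0.093) and Ocln (0.11), of which Tob2 fell. Each match includes the genotype difference itself.

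Markers of other cells moved with genotype, and their part in these results was not tested. Of 10 stellate cell markers 6 rose, Reln among them, and the list summed to 253 to 298 CPM in IRE1fl and 448 to 468 CPM in IRE1PKO. Of 10 sinusoidal endothelial markers 3 rose, with sums of 266 to 291 and 307 to 415 CPM. Kupffer cell markers summed to 422 to 576 and 499 to 689 CPM (0 of 10 rose and 1 fell), and lymphocyte markers to 12.0 to 15.9 and 6.26 to 8.87 CPM (2 of 9 fell). No marker of these 4 lists was at 0 in all libraries. Cholangiocyte markers summed to 36 to 40.4 and 41.7 to 53.3 CPM (1 of 6 tested rose and 1 fell), erythroid markers to 344 to 508 and 310.0 to 946 CPM (1 of 5 fell), and neutrophil markers to 0.859 to 6.44 and 1.44 to 2.32 CPM (neither of the 2 tested was called). Of 7 pancreatic acinar markers, Prss2, Amy2a5, Pnlip and Ctrb1 were at 0 in all libraries. The list summed to 29.1 to 43.3 CPM in IRE1fl and 7.85 to 11.1 CPM in IRE1PKO, and Cela1, the single member tested, fell. In bulk tissue, fewer cells of a type and less RNA per cell cannot be told apart.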

How the data were processed

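The authors deposited raw counts per gene symbol, whole numbers with a column for each of 6 poly(A) liver libraries. They name mm10 as the genome in the submitters' processing notes. The aligner, counting program, annotation and strand setting are not given in these sources. Among values from 1 to 8, even ones outnumbered odd ones by 2.58 to 3.19 times, so whether reads or fragments were counted is uncertain. The table's 27 date-like names (0.178% of counts) stayed in the totals. Columns were matched to samples by genotype and replicate number. All 14954 genes that passed filterByExpr were TMM-scaled and fitted with edgeR 4.0.16 (R 4.3.3), using the robust quasi-likelihood test, two-sided, with adjustment over all tested genes. SEs are the log2 fold change divided by the root of the F statistic, and 95% intervals use the test's degrees of freedom. The labels do not say that libraries come from separate animals, so p-values reflect only library-to-library spread, possibly technical. Libraries of a group were not copies of each other (chi-square per gene 28.6 to 63.4).

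On counts simulated for this comparison and its 14954 genes, recovery was 25% at a 1.5-fold change (64 genes), 73.1% at 2-fold (67 genes) and 95.2% at 4-fold (63 genes). Among the 138 calls made there, 9.42% were false. The simulation changed a far smaller share of genes than the 9.54% called in the data, so recovery in the data may differ. The 9 genes, the 8 gene lists and the 9 marker lists were chosen with earlier results of these data known. Named genes are Ern1, the 9, list members past the threshold or among the 2 most abundant of a list, and the 3 nearest in course to each of 5 genes (log2 of CPM plus 0.5). Some genes that this rule names are not reported here. Other list members named were chosen after their values were seen. Promoters come from RefSeq (GRCm38.p6), and all 9 genes matched. Alternatives were DESeq2 1.42.0 and its size factors, limma-voom (limma 3.58.1), library totals, other filters and thresholds, non-robust fitting, a replicate block, halved counts and each library left out.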

Additional observations from a re-analysis of the deposited data

How the results depend on the processing

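Over 15 alternatives, Rgs16 was called in each, Txnip in 11, Arrdc4 in 2, and Srebf1, Mlxipl and Nr1h3 in 1 each. Mlx, Nr1h2 and Usf1 were called in none, and none of the 9 genes changed sign. Of the 9, 2 were called lower by DESeq2 (Srebf1 and Nr1h3), 1 with the replicate block (Arrdc4) and 1 at an adjusted p under 0.1 (Nr1h3). With each library left out, 1 to 2 of the 9 were called higher and 0 to 1 lower. Over all genes 849 were higher and 577 lower. These counts were 1299 and 992 at an adjusted p under 0.1, and 890 were lower by DESeq2. With each library left out they ran from 398 to 868 higher and from 255 to 616 lower, lowest without IRE1PKO 01. Of all calls 59.5% were higher, and 73.4% with library totals alone, where the median gene moved by 0.071. Of 57 named genes, 4 without a call changed sign. Apoe, Mga and Insr were at 0.034, 0.034 and 0.027 with library totals alone. With each library left out, the log2 fold change ran from -0.067 to 0.028 for Apoe, from -0.14 to 0.046 for Mga, from -0.10 to 0.011 for Insr and from -0.092 to 0.43 for Rgs5. The causes were not tested.

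Same-numbered libraries deviated together with correlations of 0.10, -0.026 and 0.15, against -0.16 to 0.055 between different numbers. Of the 6 libraries, 4 correlated best with their own number. The labels give no pairing beyond the shared numbers, so the main fit held no replicate block. Whether the numbers mark pairs was not settled. With the replicate block 1051 genes were higher and 814 lower, Arrdc4 passed (adjusted p = 0.0317) and G6pc did not (0.0690). The SREBP1c targets that rose were then 9 of 15, with Acacb, Me1 and Elovl6 at adjusted p = 0.0630, 0.102 and 0.0933, and 2 arrestin-fold genes besides Txnip and Arrdc4 were higher. Arrdc4 had 434 to 831 counts per library and Srebf1 at least 14544, so the relative noise of counting is larger for Arrdc4. The part of this noise in the spread of Arrdc4 was not tested.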

Other observations

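Families of the 3 glucose targets were also measured. Of 5 tested arrestin-fold genes besides Txnip and Arrdc4, Arrdc3, a further alpha-arrestin, rose from 227 ± 9.77 to 338 ± 25.8 CPM (log2 fold change 0.57, SE 0.096, edgeR adjusted p = 0.00413), and no other passed. Arrdc3 was called in all 15 alternatives. DESeq2, fitting with no filter on low counts, and edgeR without IRE1fl 01 or without IRE1PKO 03 called 2 genes of this list higher. Of 11 tested RGS genes besides Rgs16, the main edgeR fit called none (2 higher and none lower at an unadjusted p under 0.05), and DESeq2 called 0. The replicate block called 1 higher (Rgs3), and edgeR without IRE1fl 01 called 1 lower. Rgs5, a further GTPase-activating protein, was at 37.5 ± 13.3 CPM in IRE1fl and 40.9 ± 9.86 CPM in IRE1PKO.

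Among 11 genes of the MAX and MLX network of E-box factors, Myc alone passed. It rose from 1.67 ± 0.420 to 3.83 ± 0.307 CPM (log2 fold change 1.19, SE 0.24, edgeR adjusted p = 0.0120), a call lost without IRE1PKO 01 (0.0610). Of 10 genes of insulin signalling, glucose entry and the thioredoxin system, the main edgeR fit, DESeq2 and limma-voom called none. At an unadjusted p under 0.05 (edgeR) 1 was lower, and with the replicate block 1 was called lower. Insr, the insulin receptor, had a log2 fold change of -0.047. Txn1, the thioredoxin that TXNIP binds, was at 165 ± 8.12 CPM in controls and 182 ± 8.33 CPM in IRE1PKO, with no call (edgeR adjusted p = 0.333).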
